A study of Mus musculus with 18 samples.

Results

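The early neural genes described here are *Sox1*, *Sox3*, *Sox11*, *Pax6*, *Hes5*, *Nes*, *Zic1* and *Fabp7*, 8 of the 24369 genes in the deposited table, and they were taken by gene symbol as widely used markers of the neural lineage. They were followed in 2 sets of RNA-seq libraries from E14 mouse embryonic stem cells (mESCs) of genotype Rex1GFPd2-Cas9, which carry a short-lived GFP at the *Rex1* gene (*Zfp42* in the files) and a Cas9 transgene. The first set is a differentiation time course of these wild-type cells at days 0, 1, 2 and 3, with 3 libraries per day. The second set holds GFP+ cells of 3 genotypes, wild-type, Nprl2-/- (*Nprl2* KO) and Tsc2-/- (*Tsc2* KO), with 2 libraries each. All GFP+ cells were sorted for the reporter from cultures in serum and LIF on feeder fibroblasts, and the KO lines were expanded from colonies picked after an exon had been deleted on both alleles with a pair of guide RNAs. *Nprl2* encodes a subunit of Gator1 and *Tsc2* a subunit of the Tsc complex, and both complexes restrain mTORC1. The sources used here do not say whether libraries of a group came from separate cultures or clones, so p values measure the spread between these libraries, which may be technical. The study induced differentiation in serum-free NDiff227 medium lacking LIF and inhibitors, and its methods do not tie a culture before day 0 to the time-course libraries.

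When mESCs are released from self-renewal in a serum-free medium without LIF and inhibitors, they leave the naive state, pass through a formative stage and, by default, many turn toward the neural lineage. The SoxB1 factors *Sox1*, *Sox2* and *Sox3* hold cells in a neural progenitor state, and *Sox1* is the classical first marker of the neural plate. Notch receptors act in these progenitors by releasing an intracellular fragment that joins the DNA-binding protein Rbpj and switches on *Hes* genes, which delay neuronal differentiation. Nestin (*Nes*) and brain lipid binding protein (*Fabp7*) mark progenitors and radial glia, and *Pax6* and *Zic1* encode transcription factors of the patterned neural plate.

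The libraries held 12503005 to 15305054 estimated counts in the time course and 8610357 to 13780861 in GFP+ cells. The targeted genes still gave reads in their own KO but fewer than in wild-type, *Nprl2* by a log2 fold change of -0.96 (SE 0.18) and *Tsc2* by -1.23 (SE 0.08). In the time course *Zfp42* fell by 6.01 (SE 0.11) on the log2 scale from day 0 to day 3. The chi-square per gene between libraries of a group was 1.82 to 9.06, above the value of pure sampling, so none was counted as a repeat of another. The 8 markers of mESCs summed to 7851 to 8060 TPM (kallisto's transcript level, corrected for transcript length and scaled to a fixed total) at day 0, 2452 to 2886 TPM at day 3 and 6231 to 8442 TPM in GFP+ cells. The summed TPM of 8 mesendoderm markers was between 4.49 and 13.0 in every group. The summed TPM of 10 feeder fibroblast markers was 9.58 to 17.9 at day 0 and 36.1 to 44.5 at day 3, and it was 118 to 165 in wild-type, 123 to 126 in *Nprl2* KO and 40.8 to 148 in *Tsc2* KO. The summed TPM of 8 naive markers fell from 2807 to 3007 at day 0 to 72.2 to 86.8 at day 2. At day 3 this naive sum was higher again, at 127 to 193. The summed TPM of 6 formative markers rose from 123 to 145 at day 0 to 1516 to 1608 at day 1. The part of these states in the levels of the early neural genes was not tested.

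Over 3 days, 5 early neural genes rose, and they did so on different days. *Sox3* and *Sox11* rose on the first day, *Nes* rose on the second, and *Sox1* and *Fabp7* rose on the third. *Pax6* and *Zic1* stayed at low levels with no change past the threshold, and *Hes5* was too low for the test. The quasi-likelihood test of edgeR, with p values adjusted by Benjamini-Hochberg over all genes and a threshold of 0.05, called 2 of 7 members tested as higher at day 1 than at day 0, 3 as higher at day 2 than at day 1, 3 as higher at day 3 than at day 2, and 5 as higher at day 3 than at day 0. No member was called lower by edgeR in these 4 comparisons, none was at an unadjusted p under 0.05, and DESeq2 and limma also called 0 lower. For comparison, the share of all 14382 genes tested that was called higher was 30.1%, 32.5%, 15.9% and 35.0% in the same 4 comparisons, that called lower was 30.8%, 29.6%, 15.6% and 35.9%, and 60.9%, 62.1%, 31.5% and 70.9% were called in either direction.

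**Figure D1:**
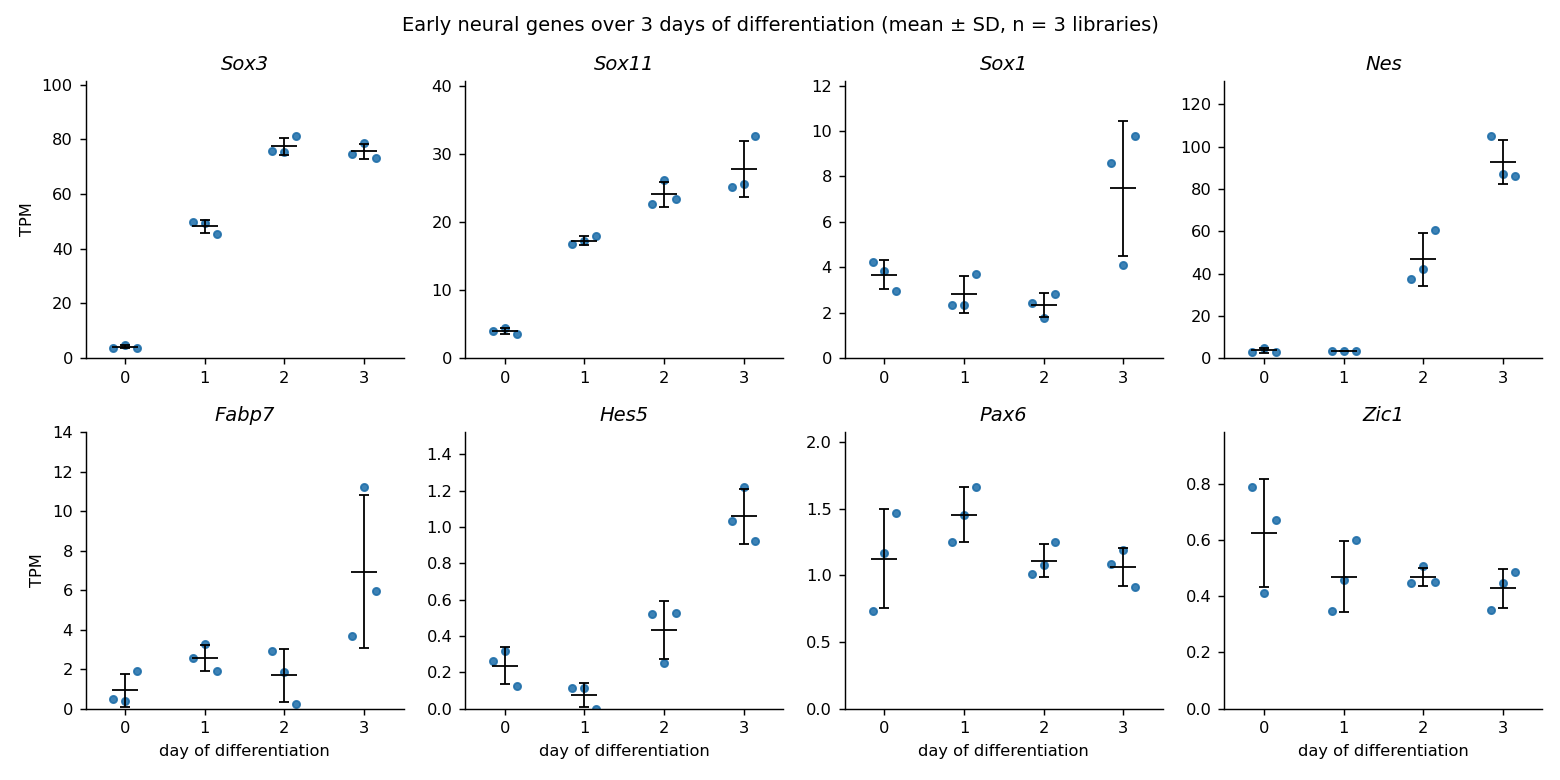
Level of each early neural gene (vertical axis, TPM from 0, a separate scale for each gene) by day of differentiation (horizontal axis), with a point per library and a black bar for the mean ± SD of 3 libraries. *Sox3* went from 4.22 TPM at day 0 to 48.3 TPM at day 1, *Nes* stayed near 3.32 TPM at day 1 and reached 92.7 TPM at day 3, and *Pax6* and *Zic1* did not pass 1.66 TPM and 0.787 TPM.

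*Sox3*, a SoxB1 gene on the X chromosome (GRCm38.p6, chrX:60891366-60893430), was the earliest and steepest of the SoxB1 members. Its TPM was 3.88, 4.97 and 3.82 in the 3 libraries of day 0, and 49.7, 49.5 and 45.5 in those of day 1. At day 2 it was 75.8, 75.5 and 81.1, and at day 3 it was 74.7, 78.7 and 73.4. All libraries of day 1 lay above all of day 0, and all of day 2 above all of day 1, while days 2 and 3 overlapped. On the log2 scale *Sox3* rose by 3.57 (SE 0.10, 11.9-fold, adjusted p = 5.72e-16, edgeR) on the first day and by 0.57 (SE 0.07, adjusted p = 1.59e-06, edgeR) on the second. From day 2 to day 3 its log2 change was -0.08 (SE 0.07, adjusted p = 0.433, edgeR), and the net change was 4.06 (SE 0.10, 16.7-fold). The rise of the first day made up 87.9% of the net log2 change. In bulk RNA a larger number of cells with *Sox3* and more *Sox3* RNA per cell cannot be told apart, and the same holds for every gene below.

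*Sox2*, the SoxB1 gene that mESCs already use for pluripotency, moved the other way, so that the makeup of the SoxB1 family changed. *Sox2* was at 434 to 494 TPM at day 0, 161 to 184 TPM at day 1, 55.9 to 67.8 TPM at day 2 and 54.5 to 59.0 TPM at day 3. It fell by 1.35 (SE 0.07) on the log2 scale on the first day and by 1.60 (SE 0.08) on the second. *Sox3* accounted for 0.857% to 0.987% of the summed TPM of the 3 SoxB1 genes at day 0, for 19.5% to 23.3% at day 1, for 52.0% to 57.3% at day 2 and for 51.6% to 57.3% at day 3. Hence *Sox3* was the more abundant transcript per length from day 2, with a ratio of *Sox3* to *Sox2* TPM of 1.11 to 1.41 at day 2 and 1.24 to 1.44 at day 3. The summed level itself went from 442 to 503 TPM at day 0 down to 137 to 142 TPM at day 3.

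**Figure D2:**
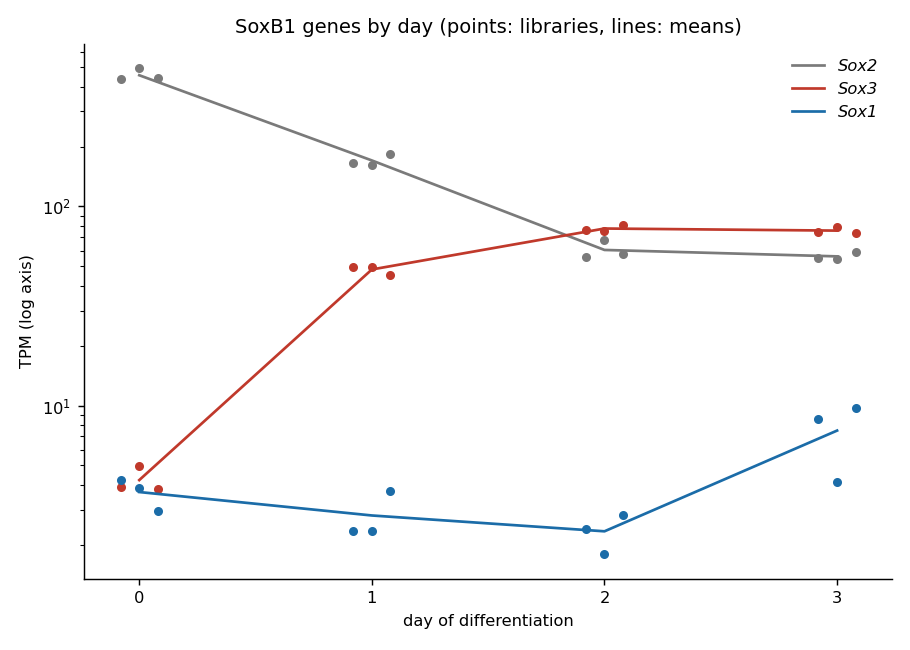
TPM of *Sox2* (grey), *Sox3* (red) and *Sox1* (blue) on a log axis by day of differentiation, with points for the 3 libraries of a day and lines through their means. *Sox2* fell from a mean of 456 to 56.1 TPM, *Sox3* crossed it between days 1 and 2, and the mean of *Sox1* rose between days 2 and 3 alone, from 2.33 to 7.49 TPM.

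*Sox1* (chr8:12395519-12399555) had no rise until the last day. Its TPM was 4.23, 3.85 and 2.95 at day 0, 2.35, 2.34 and 3.72 at day 1, and 2.41, 1.79 and 2.81 at day 2. At day 3 it was 8.57, 4.12 and 9.76. Each day 3 library was above each day 2 library, but the second library of day 3 lay within the range of day 0. From day 2 to day 3 the log2 fold change was 1.64 (SE 0.30, 3.11-fold, adjusted p = 0.00158, edgeR), and from day 0 to day 3 it was 0.93 (SE 0.28, adjusted p = 0.00962, edgeR). The steps of the first day (-0.33, SE 0.31) and the second (-0.37, SE 0.33) did not pass the threshold. The noncoding RNA gene *Sox1ot* (chr8:12385771-12436732) spans *Sox1*, and reads of the pair could be divided between them. *Sox1ot* alone had a log2 fold change of -0.08 (SE 0.27) over the last day, and when both genes were summed the log2 fold change of that day was 1.30 (adjusted p = 0.000672, edgeR).

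*Sox11* (chr12:27334268-27342718) is a SoxC factor that follows the SoxB1 factors as neural cells begin to differentiate. It was at 3.98, 4.47 and 3.56 TPM at day 0, 16.7, 17.2 and 17.9 TPM at day 1, 22.6, 26.2 and 23.4 TPM at day 2, and 25.2, 25.6 and 32.6 TPM at day 3. Levels of successive days did not overlap until day 2, and those of days 2 and 3 did. The first day gave a log2 fold change of 2.18 (SE 0.10, 4.52-fold, adjusted p = 1.24e-12, edgeR), or 80.5% of the net log2 change of 2.70 (SE 0.10). The second day added 0.37 (SE 0.09, adjusted p = 0.00112, edgeR), and the third 0.16 (SE 0.08, adjusted p = 0.156, edgeR). The other SoxC genes rose with it over 3 days, *Sox4* by 2.90 (SE 0.10) and *Sox12* by 1.01 (SE 0.06) on the log2 scale. *Sox21*, a SoxB2 gene, fell by 3.90 (SE 0.25).

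*Nes* (chr3:87971093-87980451), which encodes an intermediate filament of neural progenitors, rose 1 day later than *Sox3* and *Sox11* and reached the highest level of the 8 genes. Its TPM was 3.11, 4.92 and 2.98 at day 0 and 3.20, 3.33 and 3.43 at day 1. It was 37.2, 42.1 and 60.6 at day 2 and 105, 87.2 and 86.2 at day 3. Days 0 and 1 overlapped, whereas all libraries of day 2 lay above them and all of day 3 above those of day 2. The log2 change of *Nes* was -0.09 (SE 0.28, adjusted p = 0.793, edgeR) on the first day, 3.70 (SE 0.23, 13.0-fold, adjusted p = 4.45e-07, edgeR) on the second and 0.95 (SE 0.18, adjusted p = 0.00384, edgeR) on the third. At day 2 *Nes* had covered 79.1% of its net log2 change of 4.56 (SE 0.23).

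The promoters of *Sox11* and *Nes* are shown because these genes rose strongly but on different days. Both stretches, which end 51 bases before the start site, hold the GC box GGGCGG, a site of Sp1, on the opposite strand (as CCGCCC), and the matches are in capitals. The first is chr12:27342769-27342968 on the minus strand and the second chr3:87970843-87971042 on the plus strand of GRCm38.p6, from RefSeq, and each is written 5′ to 3′ along its gene.
*Sox11*: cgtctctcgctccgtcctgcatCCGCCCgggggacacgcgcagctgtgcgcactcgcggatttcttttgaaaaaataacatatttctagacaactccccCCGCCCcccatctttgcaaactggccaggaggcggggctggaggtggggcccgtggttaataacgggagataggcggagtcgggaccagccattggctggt
*Nes*: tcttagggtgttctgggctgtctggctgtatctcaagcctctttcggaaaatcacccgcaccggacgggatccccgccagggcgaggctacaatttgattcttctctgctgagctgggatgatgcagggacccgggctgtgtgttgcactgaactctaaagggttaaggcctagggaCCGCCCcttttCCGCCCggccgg
Of 32851 mouse promoters, 32.7% hold GGGCGG on either strand within 250 bases before the start, so the box is common, and the windows of *Sox1* and *Zic1* hold it too. The *Sox11* stretch also holds CCAAT on the opposite strand (as attgg near its 3′ end), and 33.8% of all promoters hold that motif on either strand. The window of *Sox11* has 17 CG dinucleotides and that of *Nes* 15, against a median of 6 over all promoters. The table of promoters held 8 windows for 7 of the members, *Sox3* having no entry, with a median of 16 CG dinucleotides.

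*Fabp7* and *Hes5* were detected with few reads and were highest at day 3. *Fabp7* (chr10:57784923-57788450) had 2, 2 and 8 counts at day 0, 12, 15 and 8 at day 1, 12, 8 and 1 at day 2, and 17, 49 and 24 at day 3. Its day 3 libraries were above all others, the nearest being a day 1 library with 15 counts. On the log2 scale *Fabp7* rose by 1.97 (SE 0.56, adjusted p = 0.0139, edgeR) from day 2 to day 3 and by 2.81 (SE 0.62, adjusted p = 0.000731, edgeR) from day 0 to day 3. Without the second library of day 3, which had 49 counts, the value of the last day was 1.43 (adjusted p = 0.0676, edgeR) and no longer passed. On the first day the value was 1.55 (SE 0.72, adjusted p = 0.0742, edgeR), and without the third library of day 0 it was 2.54 (adjusted p = 0.0224, edgeR).

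*Hes5* (chr4:154960626-154962372), the *Hes* gene most tied to Notch in neural progenitors, had 2, 3 and 1 counts at day 0, 1, 1 and 0 at day 1, 4, 2 and 4 at day 2, and 9, 10 and 7 at day 3. It did not pass the filter on low counts. Its 3 day 3 libraries lay above the other 9. In a fit without that filter the log2 fold change from day 0 to day 3 was 1.99 (SE 0.62, adjusted p = 0.00651, edgeR), and DESeq2 gave 2.07 (SE 0.93, adjusted p = 0.0466). At 0.923 to 1.22 TPM on day 3, it was still a low transcript beside *Hes1*, which had 44.8 to 78.9 TPM.

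TGGGAA, the core that Rbpj binds, was searched on both strands of the same windows. It was present in the windows of *Hes5* and *Fabp7*, the late and low members, and in 21.6% of all promoters. The matches are in capitals below, with the reverse complement written TTCCCA. The *Hes5* pieces are chr4:154960685-154960714 and chr4:154960829-154960858, and the *Fabp7* stretch is chr10:57784673-57784872, all on the plus strand of GRCm38.p6 from RefSeq. In *Hes5* the window precedes the start that GENCODE M21 gives, RefSeq's gene span begins upstream of it, and the nearer piece overlaps an exon of the antisense gene *Gm20421*.
*Hes5*, far: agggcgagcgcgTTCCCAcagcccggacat
*Hes5*, near: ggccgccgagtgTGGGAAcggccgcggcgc
*Fabp7*: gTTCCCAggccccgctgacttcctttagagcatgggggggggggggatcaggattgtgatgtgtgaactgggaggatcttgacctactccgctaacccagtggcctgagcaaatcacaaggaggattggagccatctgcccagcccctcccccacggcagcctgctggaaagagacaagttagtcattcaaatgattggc
In *Hes5* the cores lie 226 to 221 and 82 to 77 bases before the start, on opposite strands, and in *Fabp7* the core begins at the second base of the stretch. Such a match is a run of letters and does not show binding. The *Fabp7* window has 4 CG dinucleotides and that of *Hes5* has 32, the extremes among the members.

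*Pax6* and *Zic1* were not called in the time course. *Pax6* (chr2:105668896-105698410), a regulator of eye and forebrain development, was at 0.732 to 1.47 TPM at day 0 and 0.914 to 1.19 TPM at day 3, with 18 to 43 counts in every library. The net log2 change of *Pax6* was -0.23 (SE 0.26, adjusted p = 0.450, edgeR). *Zic1* (chr9:91358058-91365768), a zinc finger factor of the dorsal neural tube, was between 0.349 and 0.787 TPM on all days, with a net log2 fold change of -0.54 (SE 0.35, adjusted p = 0.173, edgeR). At 9 to 17 counts per library a modest change of *Zic1* could not have been detected. Of its relatives, *Zic2* rose by 1.61 (SE 0.08) and *Zic5* by 1.38 (SE 0.10) on the log2 scale.

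**Figure D3:**
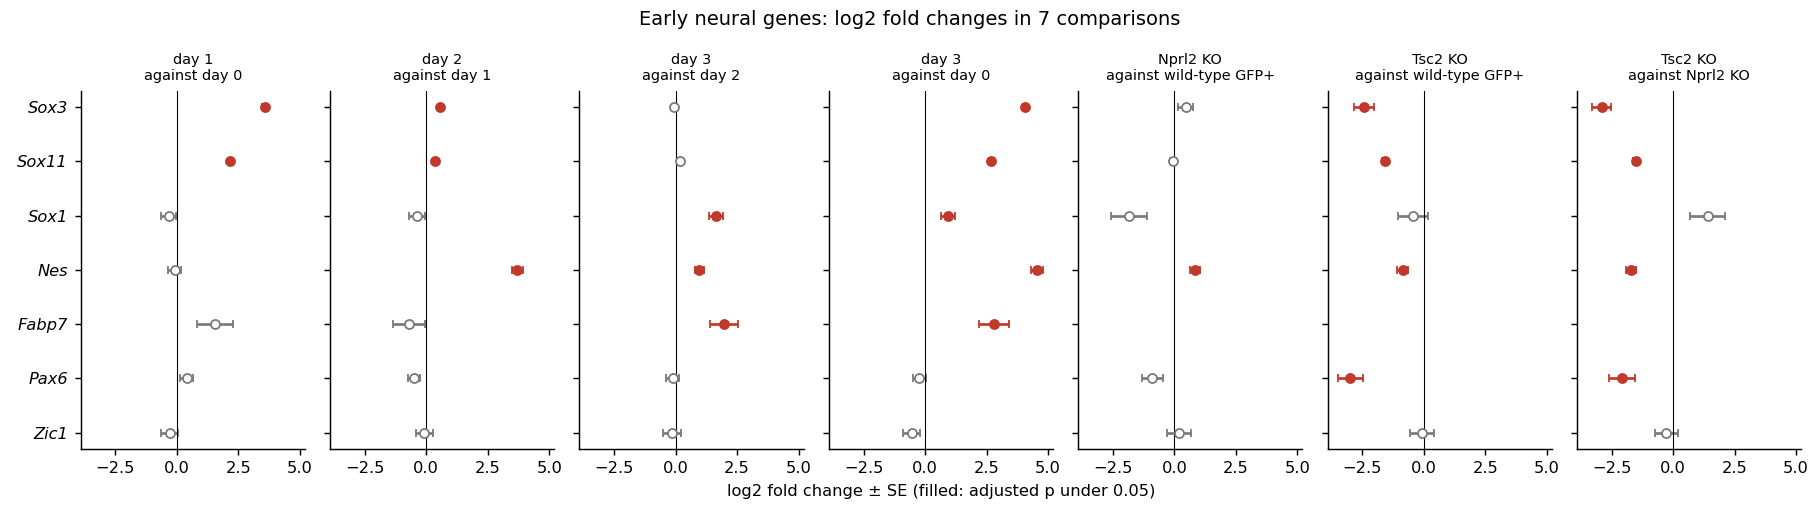
log2 fold change (horizontal axis, bars ± SE) of the members that passed the filter on low counts, in each of 7 comparisons, with filled red points where the adjusted p was under 0.05. *Sox3* and *Sox11* lie far to the right on the first day, *Nes* on the second, and in the comparisons of *Tsc2* KO the points of *Sox3*, *Sox11*, *Nes* and *Pax6* lie to the left of 0.

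Closeness of profile was measured by the root mean square difference of centred log2 CPM over the 12 time-course libraries. The closest genes were sought for each riser with a net log2 fold change of at least 1, which left out *Sox1* (0.93). For *Sox3* they were *Sptb* (0.225), *Prob1* (0.238) and *Kcnh8* (0.239). For *Sox11* they included *Myb* (0.144) and *Podxl* (0.154). For *Nes* they were *Coro2a* (0.181), *Tspan7* (0.268) and *Marveld3* (0.285). *Coro2a*, for example, was at 0.442 and 0.314 TPM at days 0 and 1 and at 5.08 and 11.1 TPM at days 2 and 3. It was picked for its closeness to *Nes*, so a shared shape follows from that choice. *Fabp7* had no close profile, the nearest being *Lcat* at 0.750.

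Other genes of the neural programme were counted by list over the 3 days, with medians set beside that of all genes tested, -0.01. Of 36 neural transcription factors, 22 were tested, 7 were called higher and 9 lower, and their median log2 fold change was -0.29. The largest rise was of *Irx3* (6.33, SE 0.33), a factor of the posterior neural plate, from 0.203 ± 0.0711 TPM at day 0 through 2.01 ± 0.282 TPM at day 1 to 10.8 ± 3.11 TPM at day 2 (SD, n = 3), and still higher at day 3. *Pou3f1*, which acts at the entry to the neural lineage, had already risen by 6.36 (SE 0.12) on the first day, when *Otx2* of the anterior epiblast and brain rose by 3.29 (SE 0.15). *Zfp521*, a driver of neural conversion, fell by 3.27 (SE 0.42) on the first day and then rose by 4.01 (SE 0.39) and 1.94 (SE 0.20). The factors that fell included *Hesx1* (-3.93, SE 0.65), *En1* (-3.85, SE 0.61) and *En2* (-3.57, SE 0.23), which mark forebrain and midbrain, and *Sox2* and *Sox21*. *Hesx1* and *En1* had few reads, with an average log2 CPM of -0.87 and -0.64 over the time course.

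The Notch list had 28 of its 31 genes tested, of which 16 were called higher at day 3 and 7 lower, with a median of 0.44. Ligands and receptors did not move as a block. Of the ligands *Dll4* (3.83, SE 0.71), *Dll3* (3.27, SE 0.16), *Dll1* (2.02, SE 0.30) and *Jag2* (0.65, SE 0.12) rose over the 3 days. *Dll4* had few reads, with an average log2 CPM of -0.10 over the time course. The ligand *Jag1* fell by 0.71 (SE 0.10). Among the receptors *Notch3* (1.72) and *Notch2* (1.38) rose while *Notch1* (-0.77) and *Notch4* (-3.32) fell. *Dll1* peaked early, at 22.4 ± 1.34 TPM on day 1 against 1.26 ± 0.630 TPM at day 0 (SD, n = 3), and fell by 1.68 (SE 0.22) on the log2 scale on the last day. The target *Hes1* dipped from 63.9 ± 6.89 TPM at day 0 to 4.65 ± 0.193 TPM at day 1 and was back at 57.1 ± 19.0 TPM at day 3 (SD, n = 3). *Nrarp*, which Notch induces and which limits it, fell by 2.03 (SE 0.27) on the first day and rose by 2.69 (SE 0.25) on the second, the day on which *Nes* rose. *Rbpj* fell by 1.55 (SE 0.10) over the 3 days.

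Genes of progenitor structure moved mostly upward, with 10 of 17 tested called higher at day 3, 3 called lower and a median of 1.13. *Prom1* (4.51, SE 0.22), the CD133 protein of apical membranes, *Nrcam* (4.20, SE 0.37), *Ptn* (3.82, SE 0.20) and *Crb2* (3.44, SE 0.29), which shapes apical polarity, rose most. *Prom1*, like *Nes*, rose most on the second day, by 3.01 (SE 0.20), after 0.99 (SE 0.28) on the first. *Fabp5*, the close relative of *Fabp7*, rose by 2.79 (SE 0.13) and reached 189 ± 2.40 TPM at day 3 against 6.94 ± 3.87 TPM for *Fabp7* (SD, n = 3). *Vim*, the intermediate filament that pairs with nestin, fell by 1.71 (SE 0.08).

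Of the 16 neuronal genes, all tested, 11 were called higher at day 3 and 4 lower, with a median of 1.67. *Snap25* (3.86, SE 0.31), *Syp* (3.60, SE 0.26) and *Dcx* (3.04, SE 0.51) rose from low levels, and *Dcx* stayed at 0.369 ± 0.192 TPM at day 3 (SD, n = 3). *Mapt* (-5.16, SE 0.28) and *Stmn2* (-1.81, SE 0.07) fell. *Tubb3*, the usual neuronal tubulin, was already at 112 ± 5.71 TPM at day 0, dropped to 13.3 ± 2.21 TPM at day 1 and was at 90.6 ± 5.66 TPM at day 3 (SD, n = 3). Of the 8 neural crest genes tested, 4 were called higher, among them *Sox9* (2.69) and *Ets1* (2.58), and 4 lower, with *Tfap2a* at -2.79. These 3 lists, the transcription factors and the Notch genes were written from general knowledge, but with earlier results of these data known. Their counts are set beside 35.0% of all genes called higher and 35.9% called lower, and they are not independent of these data.

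**Figure D4:**
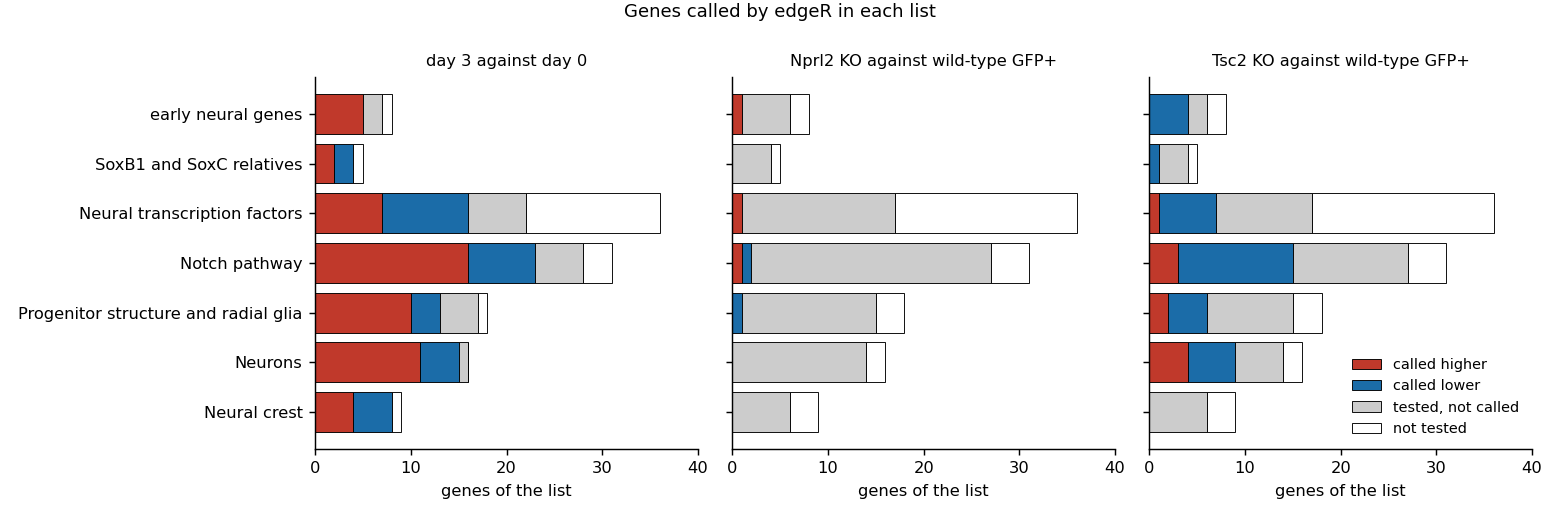
Number of genes (horizontal axis) of each list called higher (red), called lower (blue), tested but not called (grey) or not tested (white) in 3 comparisons. The early neural genes have 5 called higher over the 3 days, 1 higher in *Nprl2* KO and 4 lower in *Tsc2* KO, and in *Nprl2* KO nearly all bars are grey or white.

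In GFP+ cells the early neural genes were compared between genotypes to see whether loss of either mTORC1 regulator changed them before any differentiation was induced. In *Tsc2* KO, *Sox3*, *Sox11*, *Pax6* and *Nes* were lower than in wild-type, by 1.82-fold to 7.91-fold. In *Nprl2* KO, *Nes* was higher by 1.79-fold and no other member passed in the fit by group alone. *Fabp7* had 0 counts in all 6 GFP+ libraries, which allows up to 0.218 to 0.348 CPM (counts scaled to the library total) for counting error only, and *Hes5* had 0 to 2 counts per library. Of 6 members tested, edgeR called 4 lower in *Tsc2* KO, where it called 14.2% of all 13725 genes lower, 14.9% higher and 29.1% in either direction. It called 1 of 6 higher in *Nprl2* KO, where 2.78% of all genes were higher, 3.66% lower and 6.43% either. These comparisons share the wild-type libraries. Between *Tsc2* KO and *Nprl2* KO, 4 of 6 were called lower, where 16.6% of all genes were lower, 17.5% higher and 34.2% either.

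**Figure D5:**
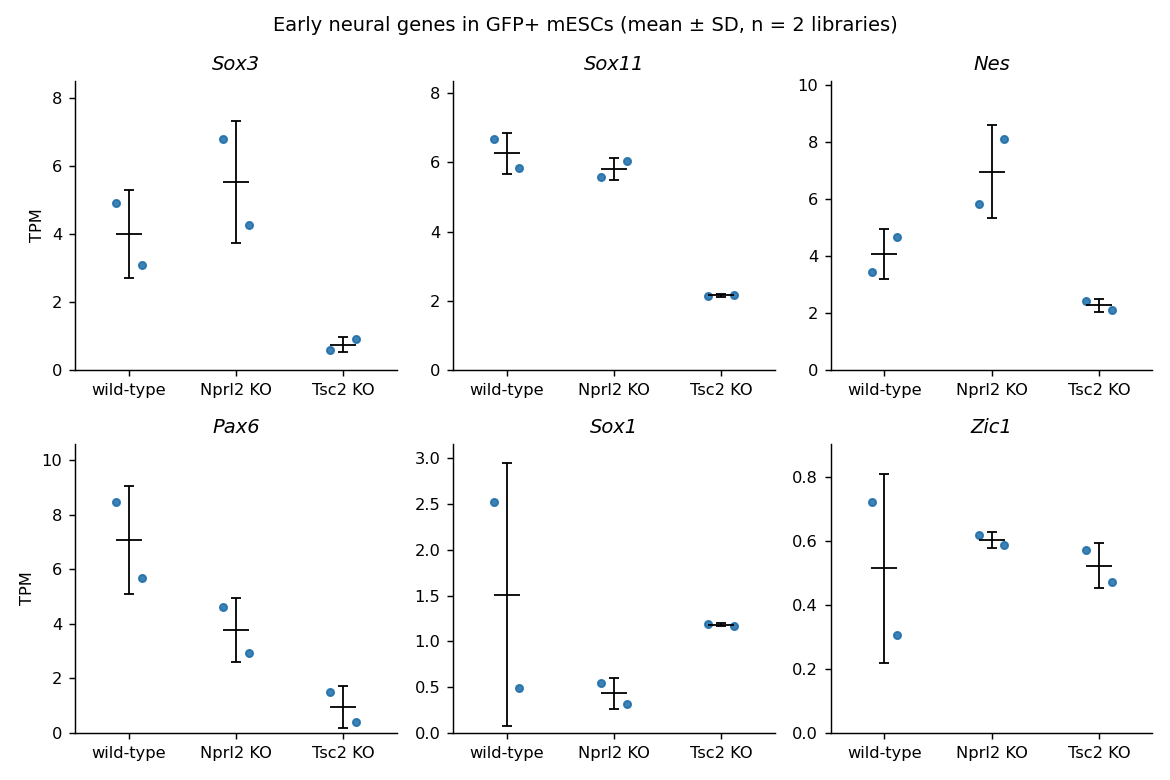
TPM (vertical axis from 0, a separate scale for each gene) of the 6 members tested in GFP+ cells, by genotype, with a point per library and a black bar for the mean ± SD of 2 libraries. *Sox3*, *Sox11*, *Nes* and *Pax6* have both *Tsc2* KO points below both wild-type points, whereas *Sox1* and *Zic1* do not.

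*Sox3* was at 4.92 and 3.08 TPM in wild-type, 6.80 and 4.26 TPM in *Nprl2* KO and 0.603 and 0.903 TPM in *Tsc2* KO. The *Tsc2* KO libraries, with only 8 and 13 counts against 58 and 28 in wild-type, were below all others, and the other genotypes overlapped. For *Sox3* the log2 fold change was -2.44 (SE 0.40, 5.43-fold lower, adjusted p = 0.000756, edgeR) in *Tsc2* KO and 0.46 (SE 0.31, not called by edgeR) in *Nprl2* KO, and -2.91 (SE 0.38, adjusted p = 0.000113, edgeR) between the KOs. *Sox2* was at 357 to 358 TPM in wild-type, 307 to 322 TPM in *Nprl2* KO and 349 to 391 TPM in *Tsc2* KO, which against wild-type came to -0.15 (SE 0.07, adjusted p = 0.243, edgeR) and 0.01 (SE 0.07, adjusted p = 0.907, edgeR) on the log2 scale. The share of *Sox3* in SoxB1 TPM was 1.35% and 0.852% in wild-type, 2.06% and 1.37% for *Nprl2* KO, and 0.154% and 0.257% for *Tsc2* KO.

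*Sox11* was at 6.67 and 5.84 TPM in wild-type, 5.58 and 6.03 TPM in *Nprl2* KO and 2.13 and 2.18 TPM in *Tsc2* KO. Its values were tight within each genotype, and only the *Tsc2* KO libraries stood apart. On the log2 scale it differed from wild-type by -1.57 (SE 0.13, 2.97-fold lower, adjusted p = 5.49e-06, edgeR) in *Tsc2* KO and -0.06 (SE 0.12, adjusted p = 0.816, edgeR) in *Nprl2* KO. Of its relatives *Sox12* was lower in *Tsc2* KO (-0.75, SE 0.09), and *Sox4* had -0.18 (SE 0.17, adjusted p = 0.447, edgeR).

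*Nes* was the member on which the genotypes fell on either side of wild-type. It was at 3.46 and 4.68 TPM in wild-type, 5.81 and 8.11 TPM in *Nprl2* KO and 2.43 and 2.11 TPM in *Tsc2* KO, with no overlap between genotypes. For *Nes* the log2 fold change was 0.84 (SE 0.20, adjusted p = 0.0299, edgeR) in *Nprl2* KO, -0.86 (SE 0.22, adjusted p = 0.0122, edgeR) in *Tsc2* KO and -1.70 (SE 0.20, 3.25-fold lower, adjusted p = 9.75e-05, edgeR) between the KOs. The calls against wild-type rested on single libraries. For *Nprl2* KO the value was 0.60 (adjusted p = 0.186, edgeR) without the first wild-type library and 0.58 (adjusted p = 0.208, edgeR) without the second KO library. For *Tsc2* KO it was -0.63 (adjusted p = 0.0801, edgeR) without the second wild-type library and -0.74 (adjusted p = 0.102, edgeR) without the second KO library.

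*Pax6* had a higher level in GFP+ wild-type cells than its own time course showed, although the 2 sets of libraries were fitted separately and were not tested against each other. Its TPM was 8.48 and 5.67 in wild-type, 4.62 and 2.94 for *Nprl2* KO, and 1.49 and 0.403 for *Tsc2* KO, from 186, 96, 100, 78, 36 and 11 counts. The genotypes did not overlap. In the fit by group alone the log2 fold change was -2.98 (SE 0.52, 7.91-fold lower, adjusted p = 0.00776, edgeR) in *Tsc2* KO and -0.90 (SE 0.43, adjusted p = 0.298, edgeR) in *Nprl2* KO. The *Nprl2* KO value passed in 2 of 12 alternative fits, with the replicate number as a block and without the filter on low counts. Between the KOs the log2 fold change was -2.08 (SE 0.54, adjusted p = 0.0290, edgeR). The last was -1.74 (adjusted p = 0.0944, edgeR) without the first *Nprl2* KO library. These values sum 8 RefSeq transcripts, whereas the authors' gene table leaves out 3 of them. That table holds 2.41 and 0.452 TPM in wild-type, 1.59 and 0.953 TPM in *Nprl2* KO, and 1.88e-06 and 2.96e-07 TPM in *Tsc2* KO. Its time-course values run from 0 to 1.47 TPM, so by that table the second wild-type library lies within the time course and only the first lies above it.

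*Sox1* and *Zic1* were not called between genotypes in the fit by group alone. *Sox1* was at 2.53 and 0.492 TPM in wild-type, from 60 and 9 counts, at 0.549 and 0.312 TPM in *Nprl2* KO and at 1.19 and 1.17 TPM in *Tsc2* KO. The wild-type libraries spread around those of *Tsc2* KO and overlapped those of *Nprl2* KO. Against wild-type the log2 fold change was -1.85 (SE 0.71, adjusted p = 0.191, edgeR) for *Nprl2* KO and -0.44 (SE 0.60, adjusted p = 0.632, edgeR) in *Tsc2* KO, and the first wild-type library decided both. Without it the values were -0.20 (adjusted p = 0.914, edgeR) and 1.20 (adjusted p = 0.146, edgeR), and without the second they were -2.52 (adjusted p = 0.00459, edgeR) and -1.11 (adjusted p = 0.0418, edgeR). *Zic1* had 5 to 14 counts per library and log2 fold changes of 0.19 (SE 0.48) and -0.08 (SE 0.48).

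The wider lists were counted in *Tsc2* KO against the 14.2% of all genes called lower and 14.9% called higher. Of 17 neural transcription factors tested, 6 were called lower and 1 higher than in wild-type, with a median of -0.44 against 0.00483 over all genes. *Pou3f1* fell by 3.24 (SE 0.52), from 28.3 and 14.9 TPM in wild-type to 2.58 and 2.15 TPM, *Irx3* by 1.81 (SE 0.49), *Otx2* by 1.13 (SE 0.18) and *Zic2* by 1.03 (SE 0.20), whereas *Meis2* rose by 1.70 (SE 0.17). Of 27 Notch genes, 12 were called lower and 3 higher, with a median of -0.27. *Lfng*, which modifies Notch receptors, fell by 2.41 (SE 0.42), *Jag2* by 1.57 (SE 0.18), *Jag1* by 1.44 (SE 0.17) and *Notch3* by 1.07 (SE 0.11). *Hes1* rose by 1.72 (SE 0.16), from 11.0 and 13.0 TPM in wild-type to 36.7 and 44.2 TPM in the *Tsc2* KO libraries, both above all other GFP+ libraries. The progenitor list had 4 of 15 called lower, with *Ptn* (-1.80, SE 0.37) and *Prom1* among them, and 2 higher, the neuronal list 5 of 14 lower, with *Ina* (-1.85) and *Map2* (-1.53), and 4 higher, with *Nefm* (2.26) and *Stmn3* (1.85), and the neural crest list 0 of 6 in either direction by edgeR, DESeq2, limma or an unadjusted p under 0.05. Their medians were -0.34, 0.18 and -0.06.

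In *Nprl2* KO, where 2.78% of all genes were called higher and 3.66% lower, edgeR called 1 of 17 neural transcription factors, 2 of 27 Notch genes and 1 of 15 progenitor genes. *Neurod1*, a neurogenic factor, was higher (1.20, SE 0.17), at 13.5 and 11.5 TPM against 5.46 and 5.71 TPM in wild-type. *Mfng* was higher (1.12), and *Notch2* (-0.53, SE 0.09) and *Plagl1* (-0.80, SE 0.16) were lower. Of 14 neuronal and 6 neural crest genes edgeR called 0, with 3 and 1 at an unadjusted p under 0.05. DESeq2 called 1 neuronal gene and 0 crest genes, and limma called 0 of both. In *Tsc2* KO, *Neurod1* was lower than wild-type (-0.98, SE 0.20) and *Plagl1* higher (1.27, SE 0.14).

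Pluripotency markers moved between the same genotypes. The summed TPM of 8 naive markers was 1468 to 1526 in wild-type, 1042 to 1076 in *Nprl2* KO and 2509 to 2626 in *Tsc2* KO. Against wild-type, edgeR called 6 of the naive markers higher in *Tsc2* KO and 5 lower in *Nprl2* KO. The summed TPM of the 6 formative markers was 459 to 573 in wild-type, 630 to 744 in *Nprl2* KO and 137 to 153 in *Tsc2* KO, where 4 were called lower. *Pou3f1* and *Otx2* are among these 4 and also among the neural transcription factors called lower, so the 2 counts share genes. Of the feeder fibroblast markers, whose sums are given above, edgeR, DESeq2 and limma called 0 between genotypes, and 0 were at an unadjusted p under 0.05. What these markers contribute to the levels of the early neural genes in GFP+ cells was not tested.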

How the data were processed

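RNA-seq libraries of a differentiation time course (12) and of sorted GFP+ mESCs (6) were analysed. Per the labels, RNA was extracted with a column kit and libraries followed Illumina protocols; the paper's methods give a stranded mRNA kit and paired-end reads for the GFP+ libraries. Per the submitters' processing notes, which name kallisto 0.42.1, DESeq2 and mm10, the authors quantified reads per RefSeq transcript and deposited, for each of 34079 transcripts, an estimated count and a TPM (scaled for transcript length and to a fixed total per library), neither normalized between libraries. The authors also deposited a gene table of TPM, which was used to find the members and to check sums. Columns of their own DESeq2 comparisons (fold changes and p-values) were not used.

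Transcripts were assigned to genes by the RefSeq table of GRCm38.p6 (33713) or GENCODE M21 (192), 174 were left out, and estimated counts were summed per gene and rounded. For 7 members the summed TPM equalled the deposited gene value within 0.1% in 18 of 18 libraries, and for *Pax6* in 3 of 18, because 3 of its 8 transcripts are missing from that table. Counts were fitted in R 4.3.3 with edgeR 4.0.16 (TMM, its low-count filter, robust quasi-likelihood test, Benjamini-Hochberg adjustment over all genes tested, threshold 0.05), once for the time course (14382 genes) and once for GFP+ cells (13725 genes), by group alone. The common biological coefficient of variation was 0.0728 and 0.0777. Standard errors of log2 fold changes were taken as their size over the square root of F. Levels are TPM with SD over libraries. TPM of different genes are comparable per length, and intervals for counts cover counting error only, because reads lack molecular identifiers. Reads without a gene were 1.65% to 3.57% of counts.

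The members and gene lists were chosen with earlier results of these data known. Named genes are the 8 members, called genes of the lists, and for each called member with a log2 fold change of at least 1 over 3 days the 3 genes with the closest profile (log2 CPM, prior count 2, each gene centred), apart from a few that are not reported here. Promoter windows are the 250 bases before the start used by a RefSeq promoter table for GRCm38.p6, the build of mm10 (for *Hes5* this start lies inside RefSeq's gene span), and the printed stretches of *Sox11*, *Nes* and *Fabp7* overlap no annotated exon. Alternatives were DESeq2 1.42.0, upper-quartile normalization, no filter, a mean CPM of at least 1, limma 3.58.1 on log2(TPM + 1), the replicate number as a block, the compared groups alone, leaving out each library and, added after seeing the data, *Pax6* without 3 transcripts and *Sox1* summed with *Sox1ot*. The fits were tested on simulated data.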

Additional observations from a re-analysis of the deposited data

How the results depend on the processing

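The calls of *Sox3* and *Sox11* on the first day, of *Nes* on the second, of *Sox1* on the third, and of *Sox3*, *Sox11* and *Pax6* in *Tsc2* KO against wild-type were kept under every alternative that could be computed. The number of early neural genes called in *Nprl2* KO against wild-type was 1, and it was 3 without the filter on low counts, 0 with limma on log2(TPM + 1), 3 with the replicate block, and 0 to 2 when single libraries were left out. Under the block and without the filter the added genes were *Sox1* and *Pax6*, both lower, with *Pax6* at adjusted p = 0.00665 and 0.000214 (edgeR). On the first day of differentiation the count was 2, and leaving out single libraries gave 2 to 4, the highest without the third library of day 0, when *Fabp7* and *Pax6* passed. With limma, *Nes* lost its calls in *Nprl2* KO (0.65, adjusted p = 0.109) and *Tsc2* KO (-0.62, adjusted p = 0.0515). *Sox1* between the KOs was called with the block, without the filter and with the 2 groups alone. *Fabp7* on the first day was not tested at a mean CPM of at least 1.

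The values that changed sign did not pass the threshold. *Pax6* without 3 transcripts gave -2.39, 2.84 and 0.28 for day 1 against day 0, day 2 against day 1 and day 3 against day 0, and with single libraries left out day 3 against day 0 lay between -0.45 and 0.023. *Zic1* for day 2 against day 1 gave 0.000433 with upper-quartile normalization, 0.00292 with limma and -0.25 to 0.14 with single libraries left out. In *Tsc2* KO *Zic1* gave 0.022 with limma and -0.47 to 0.59 with single libraries left out, and in *Nprl2* KO -0.20 to 0.87. Leaving out single libraries gave -0.22 to 0.18 for *Nes* on the first day, -0.14 to 0.017 for *Sox11* in *Nprl2* KO, and -1.11 to 1.20 for *Sox1* in *Tsc2* KO, where -1.11 passed the threshold. The cause of these changes was not tested.

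Over all genes, the count in *Nprl2* KO was 883, 1667 without the filter, 2072 with the block, 674 with DESeq2, 690 with limma, and 339 to 548 with single libraries left out, the lowest without the second *Nprl2* KO library. Other counts that moved by over 1.5 times were *Tsc2* KO against wild-type (3996, 2661 without the first wild-type and 2225 without the second *Tsc2* KO library), *Tsc2* KO against *Nprl2* KO (4692, 2974 without the second *Tsc2* KO library) and day 3 against day 2 (4525, 2969 without the second library of day 2). Upper-quartile normalization and limma moved the median log2 fold change of day 2 against day 1 to 0.10 and 0.11, and limma raised the share of higher calls there from 52.4% to 63.8%, and in *Tsc2* KO against *Nprl2* KO from 51.3% to 61.7%. Same-numbered libraries had correlated deviations in GFP+ cells (0.219 to 0.413), but each comparison there has only 2 numbers and no label says what a number shares, and in the time course they were -0.239 to 0.264, so the numbers were not taken to pair the samples in either set. The block also called *Sox1* in *Nprl2* KO (-1.71, adjusted p = 0.0358, edgeR) and between the KOs (1.44, adjusted p = 0.0332, edgeR), and changed no call of a member beyond these and *Pax6*. Fewer than 20 counts per library limit *Hes5*, *Zic1* and most values of *Fabp7*. The same limit holds for *Sox3* in *Tsc2* KO and *Sox1* in *Nprl2* KO. It also holds for *Sox1* in the second wild-type GFP+ library, and for *Pax6* in the second *Tsc2* KO library and the first library of day 0.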
